A study of Mus musculus with 36 samples.

Results

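The comparison concerned 2 tissues of the same animals, the liver and the white adipose tissue (WAT) of mice that were given water. The members were the 7 liver arrays and the 7 WAT arrays whose titles name the water treatment, 14 of the 36 arrays of the series, and each liver was paired with the WAT of the same mouse through the number that closes the title. The animals were male ddY mice, an outbred stock, 5 weeks old on arrival, for which the labels name no engineered allele. Water was given by feeding tube once a day, 5 times in all, food was withdrawn on the morning of the last dose, and tissues were taken 4 h after that dose. Another 5 mice received CAAM, free amino acids mixed in the proportions of casein, on the same schedule, and are used here only beside the water mice. The depot from which the WAT was cut is not named in the labels. Liver pieces were kept in RNAlater and WAT was frozen in liquid nitrogen, so that tissue and preservation cannot be told apart.

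Hepatocytes, the main cells of the liver, take up nutrients from portal blood, store glycogen, make glucose, urea and bile acids, clear foreign compounds and secrete most plasma proteins. White adipocytes store triglyceride in a single large droplet, release it as fatty acids and glycerol, and secrete hormones such as leptin and adiponectin. Both tissues make fatty acids and respond to insulin, and they often do so with different members of the same protein family.

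Both labels were borne out by their markers. Alb, the albumin of hepatocytes, had a score of 14.997 in the lowest, the median and the highest of the 7 livers, against 6.98 in the lowest, the median and the highest WAT (SD 5.15e-08 and 0.000302). Lep, the leptin of white adipocytes, had 11.3 in the lowest, the median and the highest WAT and 6.43 in the lowest, the median and the highest liver. Neither gene overlapped between the tissues, with liver minus WAT at 8.01 score units for Alb and -4.90 for Lep (n = 7 mice). Both had the same sign in 7 of 7 mice, for which the exact sign-flip test gives a two-sided p of 0.015625, the smallest it can give, and so did 44936 of the 45037 probe sets. A score is the value that the distribution free weighted (DFW) method gave a probe set, a group of short probes for a transcript, on an array, on a scale whose relation to fold change is not stated. The median probe set stood at 6.81 in liver and 6.92 in WAT, and these medians are used below as marks of a low score.

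The scores of a probe set hardly differed between mice of a tissue, with a median standard deviation (SD) of 1.03e-05 in liver and 1.26e-05 in WAT. The highest score was 15.3 on each of the 7 liver arrays, and array medians differed by tissue more than within it (6.81 for every liver, 6.91 to 6.92 for WAT), as if the tissues had been quantified in separate runs, which the methods do not state. Differences between tissues are therefore given in score units with no fold, and their placement rests on the 2 tissues having been scaled alike. The paired limma test, whose error is this small spread, called 99.8% of the 45037 probe sets at an adjusted p under 0.05 (44946 probe sets, 19978 higher in liver and 24968 higher in WAT), so that passing the test hardly sorted genes. It mattered mainly for the few genes that varied between mice. The replicates are 7 mice, and the p-values measure only the spread left between their scores. How far the DFW method itself narrowed that spread was not tested. The small SD therefore does not show that expression was this alike between mice. For 144 of the 179 genes picked by the rule for naming, the SD between mice was under 0.01 score units in both tissues, and it is given below for the most variable of the others. The rule also picked genes for a large SD, and the share of all probe sets under this mark was not counted. Genes are sorted by the size of the difference, and a gene is called higher in a tissue where it passed that test with a difference of at least 1 score unit.

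The mark of 1 score unit was set beside probe sets of added transcripts and of receptors of other organs. The 18 probe sets of bacterial transcripts added at hybridisation differed between -0.48 and 0.26 score units (liver minus WAT), and the 24 probe sets of transcripts added to the RNA between -0.29 and 0.92. The 86 probe sets of olfactory, vomeronasal and taste receptors lay between -0.78 and 0.63. None of these probe sets reached 1 score unit. The 3 probe sets of 18S ribosomal RNA did so, at 1.72 to 2.69 higher in liver, and all 6 control probe sets of Actb and Gapdh lay at least 1 unit from 0, some in each direction (-1.55 to 1.19). These sets were chosen after the values were seen.

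With the mark of 1 unit, 1782 probe sets were called higher in liver (3.96%) and 3755 higher in WAT (8.34%). Of 18193 genes, taking for each the probe set that scored highest over both tissues, 1099 were higher in liver (6.04%) and 1949 higher in WAT (10.7%), and the median difference over all genes was -0.05 score units. The order turned for large differences, where 360 genes were at least 3 units higher in liver and 201 in WAT, and 154 against 30 genes were at least 5 units apart. The share of liver among the called probe sets depended on the scaling, at 32.2% as deposited, 39.5% after centring each array on its median (2039 and 3126 probe sets) and 44% after quantile normalization (2230 and 2836). Among all called probe sets without the mark of size it was 44.4%, 55.5% and 51.6%. Centring moved every difference up by 0.11 units, the gap between the array medians. In WAT, 72.8% of the 360 liver genes scored below the WAT median, and in liver 48.8% of the 201 WAT genes scored below the liver median. A median divides the probe sets evenly, so the share of the WAT genes is close to that of all probe sets. The share of all genes below these medians was not counted.

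**Figure D1:**
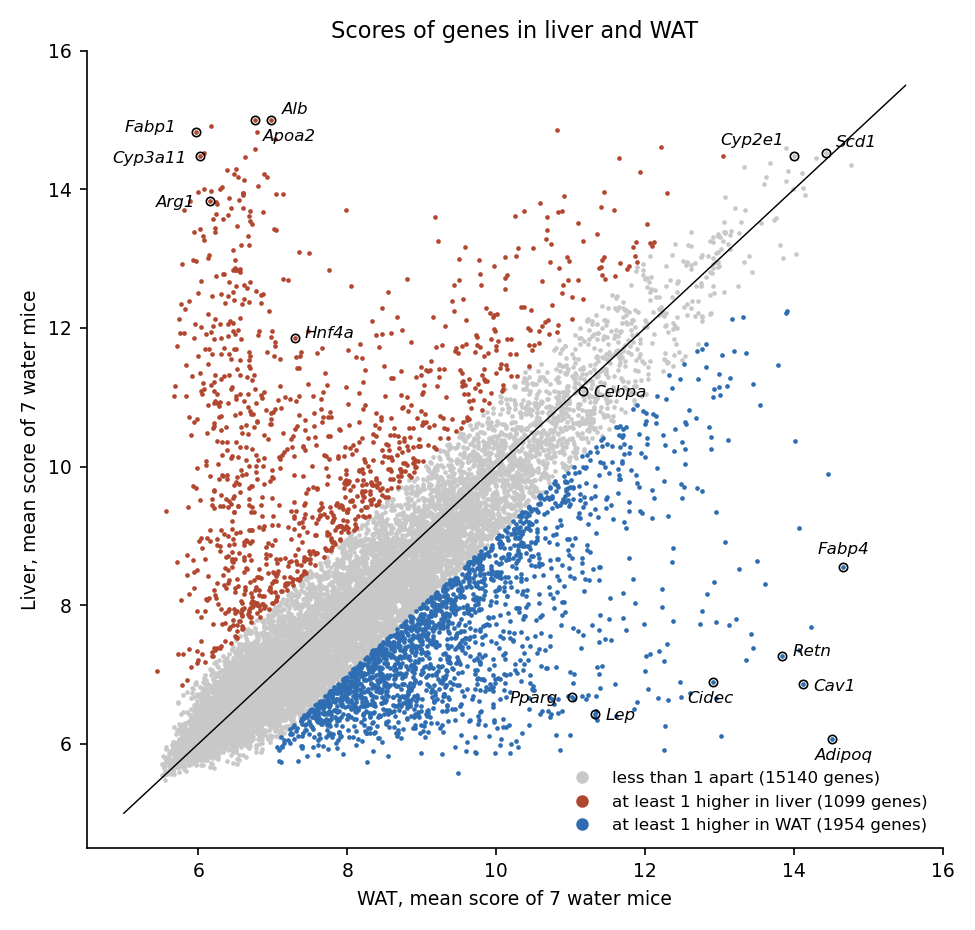
Mean score of 18193 genes in WAT (horizontal axis) and liver (vertical axis) of the 7 water mice, each point a gene and the line equal scores. Red points are the 1099 genes at least 1 score unit higher in liver and blue points the 1954 at least 1 unit higher in WAT, 1949 of which passed the test, and Fabp1, Alb and Cyp3a11 sit at the top left, opposite Adipoq, Cav1 and Retn at the lower right.

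The sequences just upstream of some genes of liver and of fat are shown because motif matches near gene starts are counted further on. Each is the 150 bases before the annotated start, from RefSeq on the build GRCm38.p6, written in the direction of the gene, with capitals for matches to any of 7 short motifs. The matches are the HNF1 motif GTTAATNAT, an inverted C/EBP motif TTGCNNAA and the CCAAT box on both strands in Alb, the TATA box TATAAA in Fabp1, the HNF4 motif CAAAGTCCA in Cyp3a11, an inverted FOXA motif TNTTTAC and a C/EBP motif in Fgb, CCAAT boxes on both strands in Adipoq and a C/EBP motif in Lep. Fgb and Cyp3a11 were chosen for their matches after the windows were read.
Alb (chr5:90460720-90460869, plus strand): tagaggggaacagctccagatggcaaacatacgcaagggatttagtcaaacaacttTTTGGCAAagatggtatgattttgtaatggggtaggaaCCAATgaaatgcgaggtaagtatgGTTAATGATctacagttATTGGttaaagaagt
Fabp1 (chr6:71199729-71199878, plus strand): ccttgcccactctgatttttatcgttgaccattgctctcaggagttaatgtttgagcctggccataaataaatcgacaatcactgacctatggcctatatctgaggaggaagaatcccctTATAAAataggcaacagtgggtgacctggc
Cyp3a11 (chr5:145879855-145880004, minus strand): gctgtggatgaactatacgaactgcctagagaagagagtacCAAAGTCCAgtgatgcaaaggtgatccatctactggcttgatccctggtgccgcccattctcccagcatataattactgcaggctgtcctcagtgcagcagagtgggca
Fgb (chr3:83049864-83050013, minus strand): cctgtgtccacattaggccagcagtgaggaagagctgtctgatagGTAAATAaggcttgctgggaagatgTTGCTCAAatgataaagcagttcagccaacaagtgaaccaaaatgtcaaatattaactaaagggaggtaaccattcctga
Adipoq (chr16:23146386-23146535, plus strand): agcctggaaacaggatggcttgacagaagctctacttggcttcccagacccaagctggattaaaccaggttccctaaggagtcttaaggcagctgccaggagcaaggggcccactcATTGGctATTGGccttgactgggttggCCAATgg
Lep (chr6:29060071-29060220, plus strand): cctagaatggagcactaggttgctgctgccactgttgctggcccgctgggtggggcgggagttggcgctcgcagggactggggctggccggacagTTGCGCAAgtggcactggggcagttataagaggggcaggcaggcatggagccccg

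The genes furthest to the liver side encode proteins that hepatocytes secrete or fill their cytoplasm with. Fabp1, the liver fatty acid binding protein, had the largest difference, with 14.8 in the lowest and highest liver, 5.96 in the lowest and highest WAT, and a difference of 8.87. Ttr, the carrier of thyroid hormone and retinol binding protein, followed at 8.79 on the probe set with the largest of its 4 differences. Serpina1c, a form of the protease inhibitor antitrypsin, was higher by 8.75, Cyp3a11, a cytochrome P450 of drug oxidation, by 8.46 and Fgg, the gamma chain of fibrinogen, by 8.45. Apoa2, an apolipoprotein of high density lipoprotein, was higher by 8.25, its partner Apoa1 by 8.04 to 8.15 on 4 probe sets, and Alb by 8.01. The others among the 15 largest were Fga, Cyp3a25, Akr1c6, Mug1, Mup3, Apoh and Apoc3, at 7.83 to 7.97 on the probe set with the largest difference of each gene. Second probe sets of Mup3 and Apoh showed 0.82 and 1.52. All 15 scored 13.7 or more in every liver and under 7 in every WAT. Serpina1c, Mup3 and the Cyp3a genes have near-identical copies whose transcripts the probes may share, so that their scores are those of the family.

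The genes furthest to the WAT side included those of the adipocyte surface, its droplet and its hormones. Adipoq, the hormone adiponectin, had the largest difference of -8.43, with 14.5 in every WAT and 6.07 in every liver. Cav1, the coat protein of caveolae, followed at -7.26, Aoc3, a copper amine oxidase on the adipocyte surface, at -6.91, Gsn, the actin-severing gelsolin, at -6.84 and Retn, the hormone resistin, at -6.58. Lgals1 (galectin 1), Prkar2b (a regulatory subunit of protein kinase A), Gnai1 (an inhibitory G protein subunit) and Rgcc lay between -6.54 and -6.25. Plin4, a coat protein of lipid droplets, was at -6.15, Fabp4, the adipocyte fatty acid binding protein, at -6.10, Ifi27l2a, an interferon-induced gene, at -6.07 and Cidec, which enlarges droplets, at -6.02. Npr3, the clearance receptor of natriuretic peptides, was at -6.02. Gsn had 5 of its 6 probe sets on the WAT side, the other at 0.11. The last of the 15 was Lcn8, a lipocalin of the epididymis, described with the other epididymal genes below. Fabp4 was above the liver median also in liver, at 8.56.

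**Figure D2:**
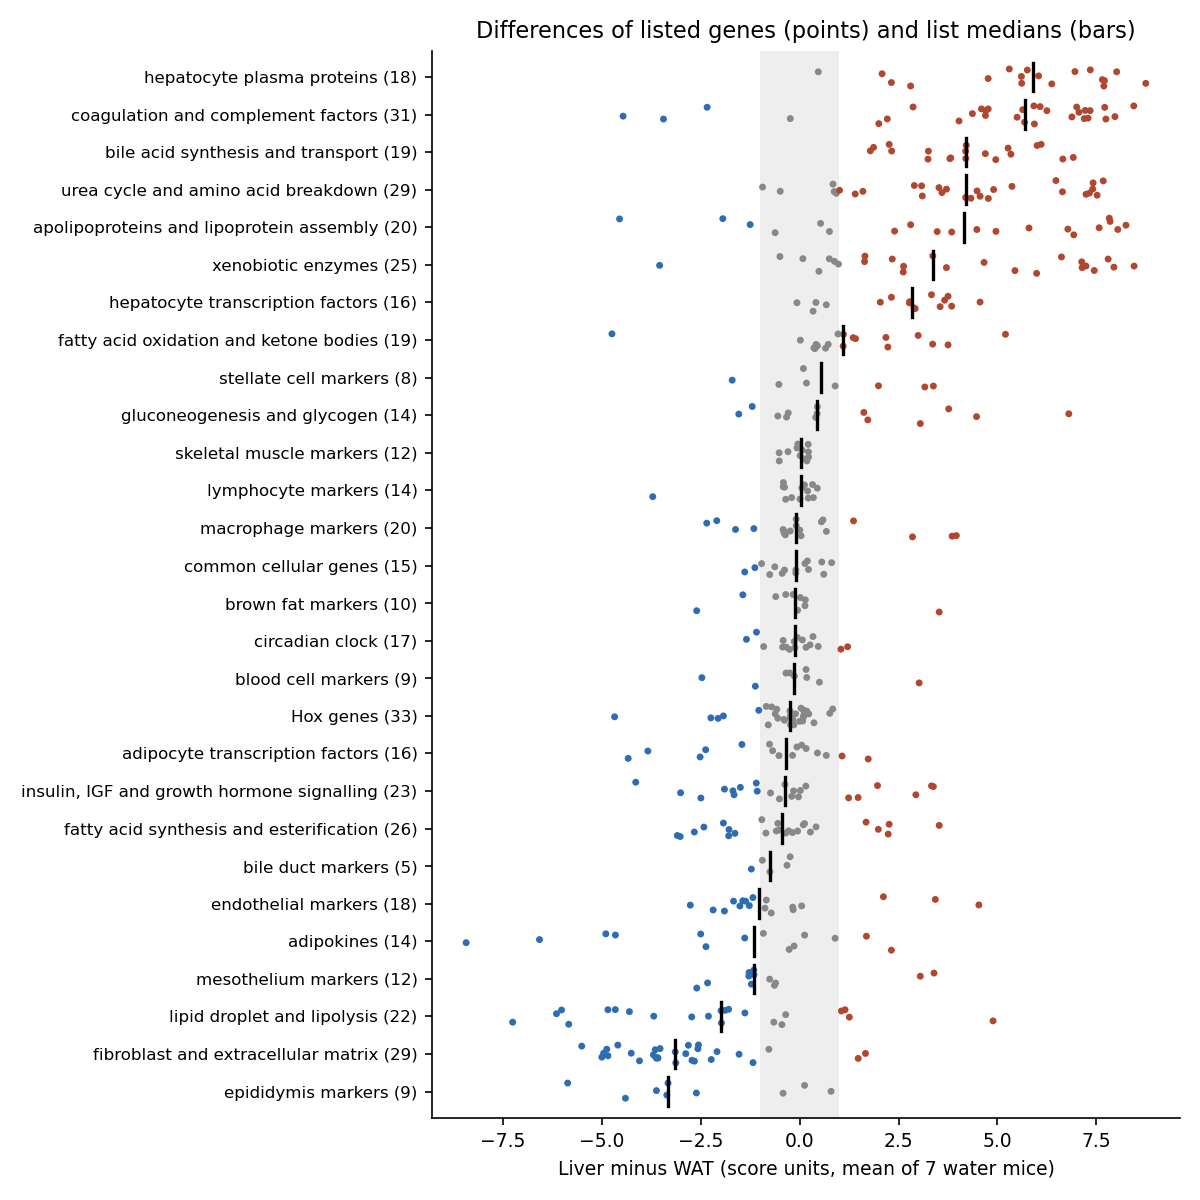
Liver minus WAT in score units (horizontal axis) for the measured members of 28 gene lists, each point a gene, red for at least 1 higher in liver, blue for at least 1 higher in WAT and grey inside the shaded band, with a black bar at the list median and the number of members after each name. The medians of secreted proteins, bile acid genes and amino acid breakdown lie right of the band (5.90, 4.20 and 4.20), and those of matrix, droplet and epididymal genes left of it (-3.15, -1.98 and -3.33).

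Each list below is described by the probe set with the highest mean score of each member, and its counts stand beside the 6.04% and 10.7% of all genes called to the liver and WAT sides. Plasma proteins of the liver were measured with 18 genes, of which 17 were higher in liver and none in WAT, with a median difference of 5.90 against -0.05 over all genes. Ahsg (fetuin A), Ambp, Hpx (hemopexin) and Itih4 were higher by 6.96 to 7.70. The remaining gene was Hp, the haptoglobin that binds free hemoglobin, which had 14.1 in liver and 13.6 in WAT, a difference of 0.47. The smallest of the called differences belonged to Orm1, an acute phase glycoprotein (2.08), to Rbp4, the retinol carrier (2.32), and to Cp, the ferroxidase ceruloplasmin (2.80). These 3 had 11.2, 11.9 and 10.9 in WAT, far above the WAT median. The 8 probe sets of Cp ranged from -1.50 to 3.27, and 6 of them were higher in liver.

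Of 31 coagulation and complement genes, 27 were higher in liver and 3 in WAT, with a median of 5.69. Fgg, Fga and Plg, the precursor of plasmin, led with 8.45, 7.97 and 7.74, and C9, a pore protein of complement, was at 7.71. The hepatic clotting factors F2, F9, F10, F5, F12, F7 and F11 lay between 4.03 and 7.29. The 3 genes on the WAT side were F13a1, the chain of the fibrin-crosslinking factor made by blood-derived cells (-4.46), Thbd, the thrombomodulin of vessel walls (-3.44), and F3, the tissue factor that starts clotting (-2.34). C1qa, a complement chain of macrophages, had 10.2 in liver and 10.4 in WAT.

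Of 20 lipoprotein genes, 14 were higher in liver and 3 in WAT (median 4.16). The apolipoproteins were all on the liver side, from Apoe at 2.40 and Apoc1 at 2.80 to Apoa2 at 8.25, and so were Mttp, which loads lipid on apolipoprotein B (3.48), and Lcat, which esterifies plasma cholesterol (4.96). Apoe and Apoc1 were also well above the WAT median in WAT, at 12.2 and 11.6. On the WAT side were Lpl, the lipase that empties lipoproteins at the vessel wall (-4.55), Gpihbp1, which holds it there (-1.94), and Angptl4, which inhibits it (-1.25). Abca1 and Scarb1, which move cholesterol out of and into cells, differed by -0.62 and 0.53.

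Amino acid breakdown was on the liver side, with 24 of 29 genes higher in liver, none in WAT and a median of 4.20. The urea cycle genes Arg1, Otc and Cps1 were higher by 7.67, 7.41 and 7.32, Asl by 3.60, and Nags, which makes the activator of Cps1, by 3.10. Hpd and Hgd of tyrosine breakdown were higher by 7.52 and 6.48, Tdo2 of tryptophan breakdown by 7.42, and Bhmt and Mat1a of the methionine cycle by 7.24 and 6.64. The 5 genes that were not called were Bckdhb (0.84), Ass1 (0.87), Gpt (0.92), Bcat2 (-0.49) and Glul, glutamine synthetase, which had 11.8 in liver and 12.7 in WAT (-0.94). Ass1 had 7.44 in liver on its probe set and Bcat2 6.62 and 7.12, close to the medians of all probe sets. After quantile normalization 1 member of the list was called higher in WAT.

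Every one of the 19 bile acid genes was higher in liver, with a median of 4.20. Slco1b2 and Slc10a1, which take bile acids up from blood, were higher by 6.92 and 6.10, Slc27a5 and Baat, which activate and conjugate them, by 6.65 and 5.34, and Abcb11, which exports them, by 5.27. Cyp7a1, the first enzyme of their synthesis, had a liver score of 8.77 and a difference of 2.33. Cyp27a1 and Hsd3b7 scored 8.47 and 10.5 in WAT, the latter with the smallest difference of the list, 1.79.

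Of 25 genes for the handling of foreign compounds, 18 were higher in liver and 1 in WAT (median 3.37). Cyp3a11, Cyp3a25, Cyp2c29, Ugt2b1 and Cyp2f2 were higher by 7.24 to 8.46. Cyp2e1, the cytochrome P450 that oxidises ethanol, stood apart with 14.5 in liver and 13.997 in WAT, a difference of 0.49. Fmo1 and Ces1d, an oxygenase and a carboxylesterase, also had high scores in both tissues, with differences of 0.08 and -0.50. Nnmt, which methylates nicotinamide, was the gene on the WAT side, at 11.4 in WAT and 7.85 in liver (-3.54).

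The transcription factor lists had medians closer to 0 than those of secreted proteins. Of 16 hepatocyte factors, 12 were higher in liver and none in WAT (median 2.84), led by the nuclear receptors Hnf4a (4.56), Nr1i3 (3.84) and Ppara (3.75), with the forkhead factors Foxa1, Foxa2 and Foxa3 at 2.77, 2.78 and 2.89. Of 16 adipocyte factors, 5 were higher in WAT and 2 in liver, and the list median was -0.35. Pparg, the receptor that drives adipocyte formation, was at -4.34, with 11.01 in WAT and 6.68 in liver. Ebf1, Zfp423, Ebf2 and Cebpd, further factors of fat cell formation, lay between -3.84 and -1.46, and the 5 probe sets of Ebf1 had the same sign. Rxra, the partner of many nuclear receptors, and Mlxipl, which answers to glucose, were higher in liver by 1.73 and 1.07. Another probe set of Rxra was at -0.06. Cebpa, a factor of both cell types, had 11.1 in liver and 11.2 in WAT, and Cebpb and Srebf1 differed by 0.67 and -0.76.

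Of 14 genes of secreted fat hormones and related proteins, 7 were higher in WAT and 2 in liver (median -1.15). Beside Adipoq, Retn and Lep, these were Sparcl1 (-4.66), Nrg4 (-2.50), Lcn2 (-2.37) and Nampt (-1.39). The 2 on the liver side were Rbp4 (2.32) and Agt, the precursor of angiotensin (1.69). Lcn2, a lipocalin of innate defence, was at 7.44 in liver and varied between mice in WAT, with 12.84 and 11.99 in mice 1 and 2 and 7.62 to 9.59 in the others.

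Lipid droplet genes were mostly on the WAT side, with 15 of 22 higher in WAT and 4 in liver (median -1.98). The caveolar genes Cav1, Cav2, Cavin1 and Cavin2 lay between -7.26 and -4.66. The lipases of the droplet were also there, with Pnpla2 at -2.31, Lipe at -4.31 and Mgll at -1.98, and the regulators Abhd5 and G0s2 at -1.89 and -1.39. A second probe set of Lipe showed 0.23. Aqp7, the glycerol channel of fat, was at -2.73. The 4 genes on the liver side were Cideb (4.89), the perilipins Plin2 (1.26) and Plin5 (1.15), and Fitm1 (1.05).

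Fatty acid synthesis was shared. Of 26 genes, 8 were higher in WAT and 5 in liver, and 13 were in neither class (median -0.44). Fasn, the synthase itself, had 12.3 in WAT and 9.29 in liver (-3.02), and Acaca, which supplies its substrate, was at -1.64. Scd2, Mogat1 and Dgat1, which desaturate or esterify fatty acids, lay at -3.09, -2.66 and -2.42. On the liver side were the elongases Elovl3 (3.53) and Elovl5 (1.99), the desaturases Fads2 (2.26) and Fads1 (1.68) and the phosphatase Lpin2 (2.24). A second probe set of Fads1 showed -0.18. Scd1, which desaturates stearate, had 14.5 in liver and 14.4 in WAT, with a difference of 0.09 that turned to -0.37 after quantile normalization. Acly, Me1 and Gpam differed by -0.85, 0.12 and -0.05.

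Of 19 genes of fatty acid oxidation and ketone bodies, 10 were higher in liver and 1 in WAT (median 1.10). Ketone handling was divided, with Bdh1, which makes hydroxybutyrate in liver, at 5.20 and Oxct1, with which other tissues use ketone bodies and which hepatocytes lack, at -4.75. The 4 probe sets of Oxct1 had the same sign. The peroxisomal genes Ehhadh and Acaa1b were higher in liver by 3.36 and 2.996 and Cpt1a, the entry step of mitochondria, by 2.18. Another probe set of Cpt1a was at -0.15. Acadm, Cpt2, Hadhb, Acadl and Acads differed by 0.36 to 0.72.

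Glucose genes were split within the pathway. Of 14 genes, 6 were higher in liver and 2 in WAT, with a median of 0.44. G6pc and Slc37a4, which release free glucose, were higher in liver by 4.47 and 3.77, and Fbp1, the gluconeogenic bisphosphatase, by 6.80. Pck1, which also feeds glycerol synthesis in fat, had 12.5 in WAT and 11.3 in liver (-1.20), with 2 of 3 probe sets of that sign. Pcx, which makes oxaloacetate, had 11.5 in liver and 12.1 in WAT, a difference of -0.55.

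Genes of insulin, insulin-like growth factor (IGF) and growth hormone signalling lay on both sides, with 9 of 23 higher in WAT and 6 in liver (median -0.37). Gcgr, the glucagon receptor (3.38), the binding proteins Igfbp2 (3.33), Igfbp1 (2.94) and Igfbp4 (1.48), Igfals (1.97) and Igf1 itself (1.24) were higher in liver. Igf1 had 11.5 in WAT and 12.7 in liver. Igfbp5 (-4.15), Igfbp6 (-3.01), Slc2a4, the insulin-responsive glucose transporter (-2.50), Irs1 (-1.90) and Igf1r (-1.69) were higher in WAT. Insr and Ghr, the receptors of insulin and growth hormone, differed by 0.16 and -0.37, and Ghr had 12.96 and 13.33.

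Related forms of a protein family were set side by side in 20 pairs, each listed in most cases with the form better known from liver first and a form of fat or other tissues second, and chosen with earlier results of these data known. In 11 pairs the first form was higher in liver and the second in WAT, and in 0 pairs the reverse held. The first form was higher in liver in 14 pairs and the second higher in WAT in 16. The 16 include Acaca, the acetyl-CoA carboxylase of lipogenic tissues, liver among them, which is listed after Acacb. The widest contrast was that of Fabp1 (8.87) and Fabp4 (-6.10), followed by Cideb (4.89) and Cidec (-6.02), Slc27a5 (6.65) and Slc27a1 (-2.64), and Slc2a2 (6.58) and Slc2a4 (-2.50). Aqp9 (4.97) and Aqp7 (-2.73), channels for glycerol, Ppara (3.75) and Pparg (-4.34), the mitochondrial carbonic anhydrases Car5a (3.49) and Car5b (-3.04), and Gys2 (3.05) and Gys1 (-1.54) were divided likewise. So were Igfbp1 and Igfbp5 (2.94 and -4.15), Lpin2 and Lpin1 (2.24 and -1.80) and Pklr and Pkm (1.47 and -1.997).

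In the other 9 pairs 1 form or both were not called. Arg1, Fbp1 and Dio1 were higher in liver by 7.67, 6.80 and 1.83 while Arg2, Fbp2 and Dio2 differed by 0.31, -0.24 and 0.14. In 5 pairs only the second form was called. Ldhb, Scd2, Mogat1, Dgat1 and Acaca lay between -3.09 and -1.64 while Ldha, Scd1, Mogat2, Dgat2 and Acacb lay between -0.96 and 0.30. Ldha turned from 0.30 to -0.02 after quantile normalization. The pair of glycogen phosphorylases, Pygl and Pygm, differed by 0.41 and -0.29, with Pygl above 11 in both tissues and Pygm near the median in both.

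**Figure D3:**
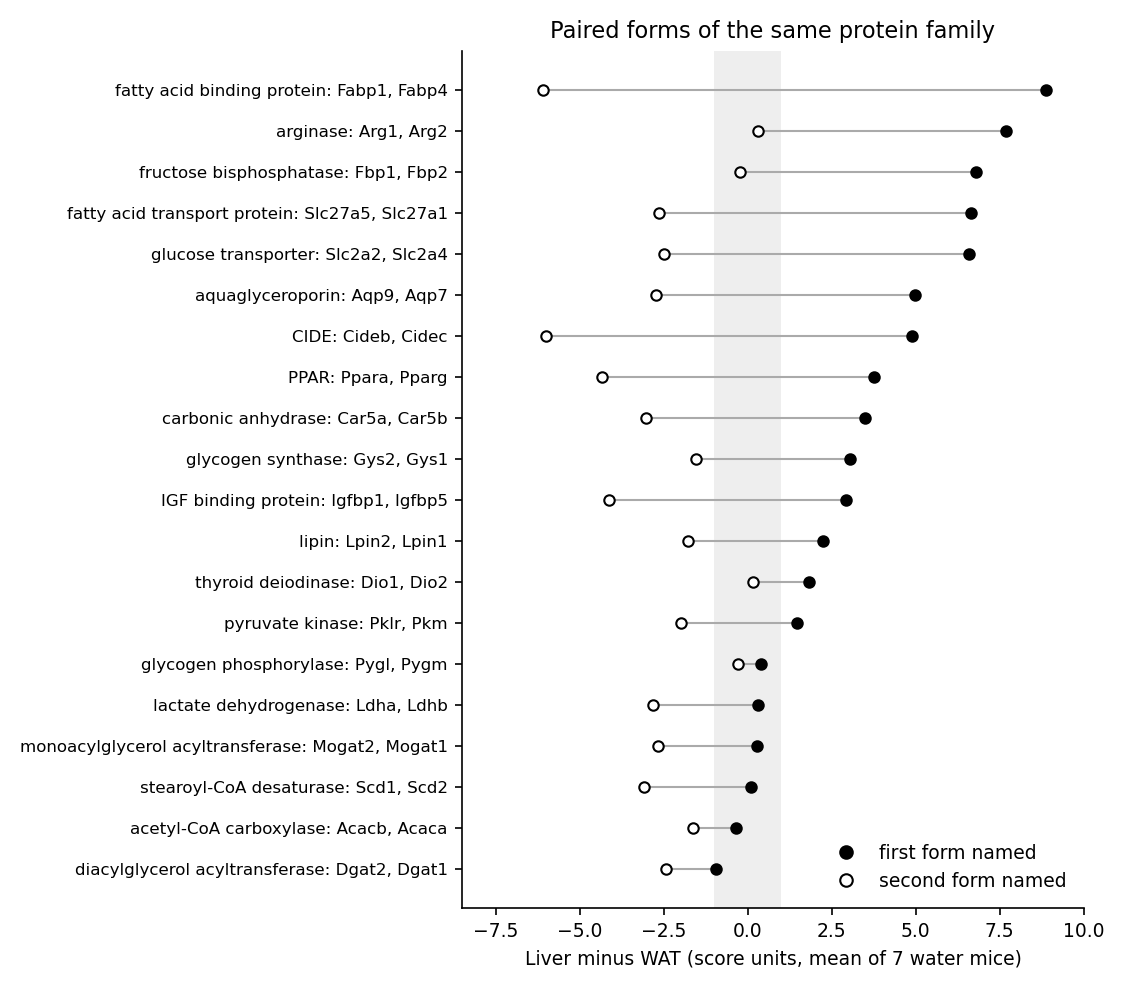
Liver minus WAT in score units (horizontal axis, mean of 7 water mice) for 20 pairs of related genes, the first form filled and the second open, with the band of less than 1 unit shaded. In 11 pairs the filled and open points lie on opposite sides of the band, Fabp1 at 8.87 and Fabp4 at -6.10 being the widest.

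The tissues also hold other cells, and fewer cells of a type cannot be told apart from less RNA per cell in whole tissue. Of 29 fibroblast and matrix genes, 26 were higher in WAT and 2 in liver (median -3.15). Dpt (dermatopontin), Col4a1, Col3a1 and Col1a2 lay between -5.51 and -4.88, and Pdgfra and Pdgfrb, receptors of fibroblasts and pericytes, at -2.57 and -3.15. The mean score of the 29 genes was 8.01 in every liver and 11.01 in the median WAT. On the liver side were Fn1, the plasma fibronectin of hepatocytes (1.48), and Dpp4, a surface peptidase (1.66).

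Of 18 endothelial genes, 9 were higher in WAT and 3 in liver (median -1.03). Cldn5, Cdh5 and Esam of cell junctions were at -2.77, -2.19 and -1.90, and Vwf, Pecam1 and Emcn at -1.51, -1.18 and -1.27. Clec4g, Stab2 and Fcgr2b, which mark the endothelium of liver sinusoids, were higher in liver by 4.53, 3.43 and 2.12. Lyve1, which marks sinusoids and lymphatic vessels alike, was at -1.44, while Kdr, Tie1 and Stab1 differed by -0.18, -0.16 and 0.05. Clec4g had a second probe set at -0.17, and 1 of 2 probe sets of Cdh5 was at 0.14.

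Of 20 macrophage genes, 4 were higher in liver and 4 in WAT (median -0.09, which turned positive at 0.07 and 0.02 after quantile normalization and centring). Cd5l, Vsig4 and Clec4f, genes of the Kupffer cells of liver, were higher in liver by 3.96, 3.85 and 2.85 and the scavenger receptor Msr1 by 1.36. Cd163, Lyz2, Ccr2 and Csf1r lay on the WAT side at -2.35, -2.10, -1.62 and -1.16. The shared markers C1qa, C1qb, C1qc, Mrc1, Adgre1, Cd68 and Fcgr1 lay between -0.42 and 0.00.

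Of 14 lymphocyte genes, none was higher in liver and 1 in WAT, Ighm, an immunoglobulin chain, at -3.72, with 5 of its 11 probe sets of that sign, and the list median was 0.03. All 12 skeletal muscle genes (median 0.04) and 7 of 10 brown fat genes (median -0.11) were in neither class, and Ucp1, with which brown adipocytes make heat, was at 6.27 in liver and 6.44 in WAT. The brown fat genes called were Elovl3 on the liver side (3.53) and Pdk4 and Cox8b on the WAT side (-2.60 and -1.44). Of 8 stellate cell genes, 3 were higher in liver and 1 in WAT (median 0.53). Reln, Colec11 and Lrat, genes of the vitamin A-storing stellate cells of liver, were higher in liver by 3.38, 3.16 and 1.99, and Rgs5, also a pericyte gene, was at -1.71. Of 9 blood cell genes (median -0.13, near 0 after quantile normalization), Alas2 was higher in liver (3.02) and Pf4 and S100a8 in WAT (-2.47 and -1.12), with only 1 of the latter called after quantile normalization, while the hemoglobin genes Hba-a1 and Hbb-b2 differed by 0.50 and -0.25.

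Mesothelium, the lining of abdominal fat pads and organs, was represented by 12 genes, of which 7 were higher in WAT and 2 in liver (median -1.16). Upk3b, Gpm6a, Upk1b and Wt1 lay at -2.60, -2.33, -1.29 and -1.28. Krt8 and Krt18, keratins that hepatocytes also make, were higher in liver by 3.05 and 3.40, with an SD between WAT arrays of 0.18 and 0.45. Krt19, also the 1 called gene of 5 bile duct markers (median -0.75), was at -1.22, and the other bile duct genes Krt7, Sox9, Epcam and Cftr at -0.94 to -0.24.

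Of 33 Hox genes, which are positional genes, 5 were higher in WAT and none in liver, with a median of -0.23. Beside the 10.7% and 6.04% of all genes called to these sides, the counts do not set them apart as a group. Hoxc8 was at -4.68, with 10.8 in WAT and 6.12 in liver, Hoxd8 at -2.25, Hoxc4 at -2.06, Hoxa5 at -1.93 and Hoxd9 at -1.03. The other 28 lay between -0.84 and 0.84, and 23 of the 33 scored below the liver median in liver. The share of all genes below that median was not counted.

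Of 17 clock genes, 4 were called, a share not below that of all genes. Nfil3 and Hlf, which encode factors that bind D boxes, were higher in liver (1.21 and 1.04) and Per1 and Per3 in WAT (-1.35 and -1.09), with a median of -0.12 that was 0.01 after quantile normalization. Under either rescaling only 1 clock gene was called higher in WAT. The 6 probe sets of Per3 ran from -1.09 to 0.10. Of 15 genes of general cell functions, 2 were called, Tubb5 (-1.39) and Polr2a (-1.13), with a median of -0.10 that was 0.01 after centring, and Eef1a1, Rplp0 and B2m differed by 0.13, -0.10 and 0.22. A second probe set of Polr2a showed 0.27.

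The most even genes were sought among the 832 genes in the top 5% of scores in both tissues. The 8 with the smallest differences were Tmed5, Psmb6, Ppp1cc, Psmc2, Decr1, Ctsl, Cct5 and Rps18, with 0.0017 for Psmb6 and -0.0036 for Rps18, on the probe set nearest 0 for each gene. Of these, Tmed5, Psmc2 and Rps18 had other probe sets of the opposite sign, those of Rps18 running from -0.28 to 0.81. Psmb6 and Psmc2 belong to the proteasome, Cct5 to the chaperonin that folds actin and tubulin, Ctsl is a lysosomal protease and Decr1 an enzyme of unsaturated fatty acid oxidation. Psmb6 scored 11.3 and Ctsl 13.1 in both tissues. After quantile normalization Tmed5, Psmb6, Decr1, Ctsl and Cct5 turned negative, at -0.38 for Ctsl, and after centring Ppp1cc and Rps18 turned positive, at 0.11 and 0.10.

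Genes known from the epididymis, the duct of the male tract that lies beside a fat pad, had high scores on some WAT arrays, though not all of them. Lcn8 had 19.8 and 18.4 in the WAT of mice 1 and 2, and 10.9, 9.69, 10.2, 9.88 and 9.32 in that of mice 3 to 7, against 6.74 in every liver. Gpx5, a secreted peroxidase of the epididymis, had 18.4, 16.8, 11.2, 10.2, 10.6, 10.3 and 9.98 in mice 1 to 7 and 6.90 in every liver. The WAT of mice 1 and 2 was the highest for both, and the other 5 still lay above every liver. Of 9 epididymis markers, 5 were called higher in WAT (median -3.33), and the mean of the 9 ran from 7.34 over a median of 7.60 to 13.5 across the WAT arrays, against 6.52 in each liver. Without mice 1 and 2 the differences fell in size from -5.87 to -3.26 for Lcn8, from -4.41 to -2.15 for Lcn9, from -3.62 to -1.60 for Defb42, from -3.36 to -1.16 for Cst11 and from -3.33 to -1.25 for Adam7, each still called. Gpx5, chosen for its spread, went from -5.57 to -3.54. Rnase10 went from -2.61 (limma, adjusted p = 0.0517) to -0.86, which then passed the test but not the mark of 1 unit. On the linear scale, which treats the score as if it were a log2 value, 0 of the 9 were called. Leaving out any single mouse left 2 to 4. Serpina1f and Spint4 were not raised in mice 1 and 2, with 6.06 and 6.46 in WAT on average against 6.19 and 6.04 in liver. Lcn5 was the reverse case, with 7.58 in every liver and 8.67 in the WAT of mouse 1, and was called to the liver side (1.24) without mice 1 and 2. With mice 1 and 2 left out, 1784 and 3752 probe sets were called with at least 1 unit. Counts of the other lists stayed within 1.5 times. Lcn2, Krt8 and Krt18 were also highest in the WAT of these 2 mice, Krt18 at 8.51 and 8.01 against 7.16 to 7.59. The part of epididymal RNA in these values was not tested.

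Among the 493 measured members of the lists, 2 had an SD of at least 0.1 score units between livers and 11 between WAT arrays. Of all 45037 probe sets, 37 in liver and 160 in WAT had an SD above 0.1, a smaller share in each tissue. Over all genes, the 8 with the largest SD in WAT were the epididymal genes Lcn8, Lcn9, Cst11, Adam7, Gpx5, Defb42, Rnase10 and Spink8, at 2.97 to 4.496. In liver they were BC023105 (1.07), Sdhd (0.91), Cyp4a14 (0.70), Gstp3 (0.69), Nnmt (0.54), Reep3, Acot3 and Alas1. Cyp4a14, which oxidises the ends of fatty acids, had 8.11, 7.43, 6.94, 8.04, 7.59, 8.98 and 8.58 in the livers of mice 1 to 7 and 6.31 in every WAT. Acot3, a peroxisomal thioesterase, and Alas1, the first enzyme of heme synthesis, were both highest in the liver of mouse 6 as Cyp4a14 was, at 7.65 and 9.50. The livers of mice 4 and 5 were the lowest for Gstp3, a glutathione transferase, at 9.17 and 8.62 against 10.2 to 10.3, and the highest for Nnmt, at 8.84 and 8.16 against 7.32 to 8.08. These 8 liver genes kept the same sign of difference in 7 of 7 mice, and Spink8 in 6 of 7. That sign is for the probe set with the largest SD of each gene. Alas1 was at -1.24 on it and at 0.45 on another.

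Sdhd, a subunit of succinate dehydrogenase, varied alike in both tissues. Mouse 2 had 6.87 in liver and 6.57 in WAT, while the other mice had 9.06 to 9.58 in liver and 8.12 to 8.54 in WAT, and mouse 7 was the highest in both. Scores in the brown adipose tissue (BAT) of the same mice did likewise, with 7.57 in mouse 2 and 12.8 to 13.7 in the others. Reep3, an endoplasmic reticulum protein, was likewise lowest in mouse 2 in both tissues, at 6.79 in liver and 7.30 in WAT. These values come from 1 of 2 probe sets of Sdhd and 1 of 6 of Reep3. The other probe sets were not read mouse by mouse. BC023105, a transcript of unassigned function here, was highest in mouse 3 in both, at 10.2 in liver and 6.76 in WAT.

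**Figure D4:**
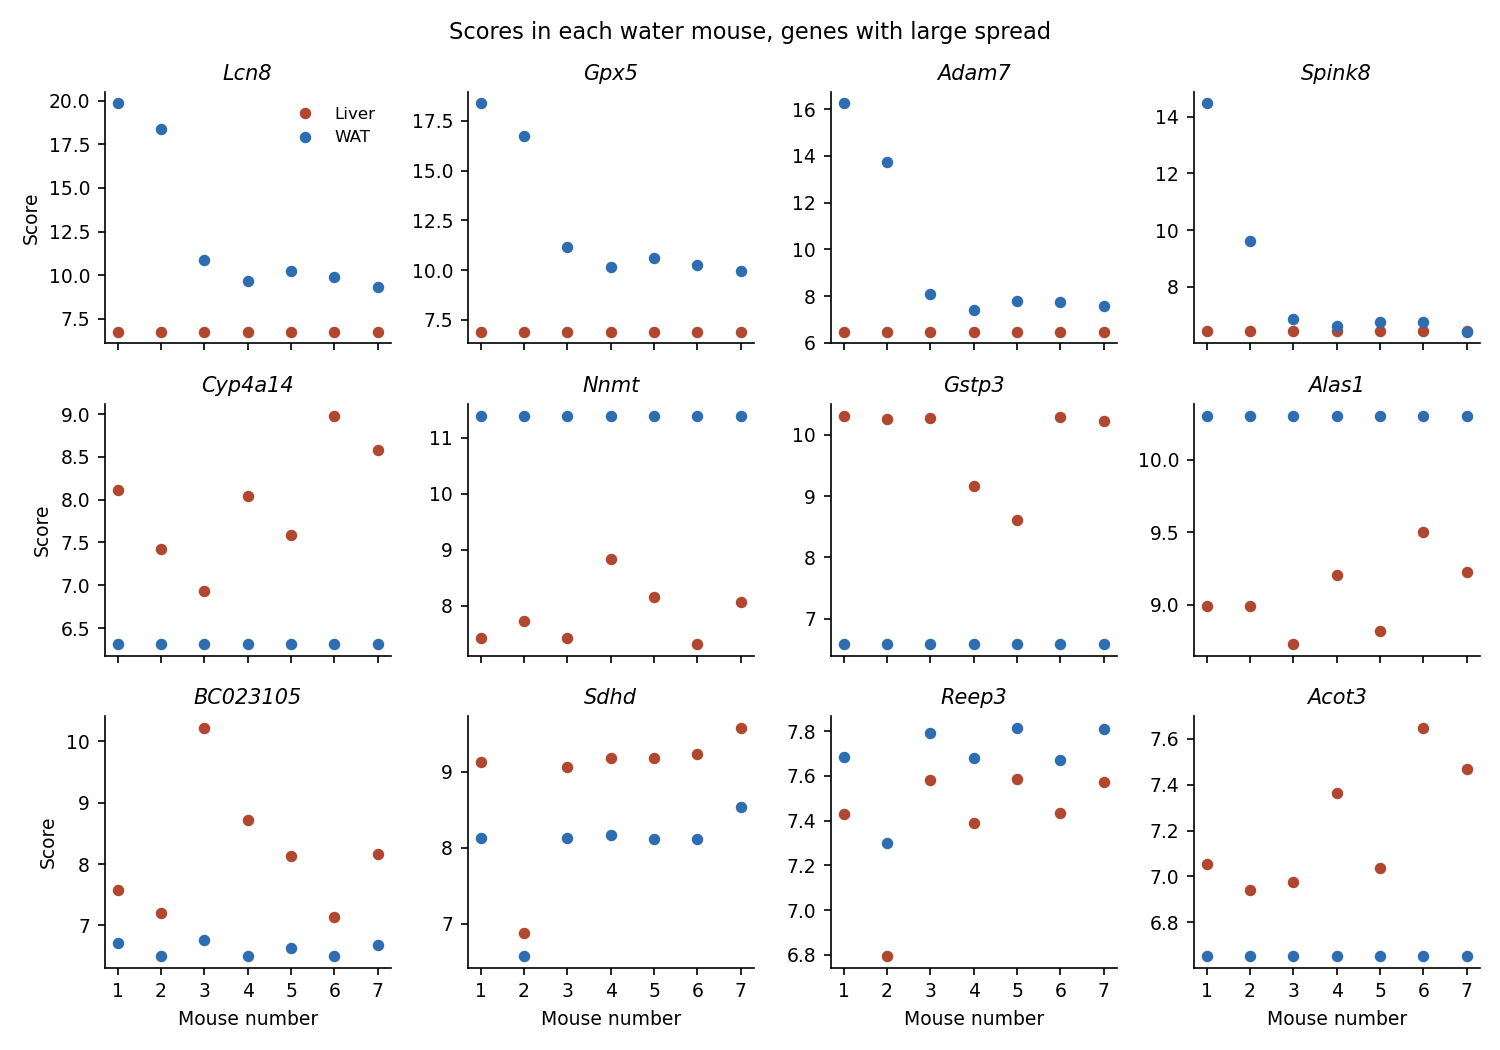
Score (vertical axes, each with its own range) of 12 genes in the liver (red) and WAT (blue) of each of the 7 water mice (horizontal axes, where the mouse number is only a name). Lcn8, Gpx5, Adam7 and Spink8 are highest in the WAT of mice 1 and 2, Cyp4a14, Nnmt, Gstp3, Alas1 and Acot3 vary between livers and hardly between WAT arrays, and Sdhd and Reep3 are lowest in mouse 2 in both tissues.

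BAT of the same mice was set beside both tissues. Of the 360 genes at least 3 units higher in liver than in WAT, 327 had a BAT score within 1 unit of WAT, a share of 90.8% that is close to the 90.4% of all genes, and 355 (98.6%) were at least 1 unit lower in BAT than in liver, against 7.67% of all genes. Of the 201 genes at least 3 units higher in WAT than in liver, 164 (81.6%) were at least 1 unit higher in BAT than in liver, against 6.12% of all genes, and 142 (70.6%) were at least 1 unit lower in BAT than in WAT, against 7.15%. Since the genes were chosen by their liver and WAT scores, these shares are a description. Adipoq had 14.005 in BAT against 14.5 in WAT, Fabp4 14.5 against 14.7 and Prkar2b 12.8 against 12.3, whereas Retn had 9.27, Npr3 8.09 and Lep 7.34 in BAT against 13.8, 12.3 and 11.3 in WAT. The scale of BAT scores carries the same limit as that of the other tissues, and these values share the WAT and liver arrays already described.

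Promoter windows of the genes far apart were read for short motifs. A RefSeq window of 300 bases, 250 before and 50 after the start, was on hand for 297 of the 360 liver genes and 149 of the 201 WAT genes, and for 14452 measured genes in all. The HNF1 motif GTTAATNAT lay in 20 windows of liver genes (6.73%), in 0 of WAT genes and in 0.616% of all measured genes. The HNF4 motif CAAAGTCCA lay in 10 (3.37%), 0 and 0.464%. For the C/EBP motif TTGCNNAA the shares were 19.5% of liver genes, 11.4% of WAT genes and 9.04% of all, for the FOXA motif TNTTTAC 17.8%, 8.72% and 9.47%, and for the TATA box TATAAA 21.2%, 12.8% and 9.87%. The motif AGGNCAAAG of PPAR receptors, which can share bases with the HNF4 motif, lay in 5.05%, 2.68% and 1.76%, and the CCAAT box in 37.4%, 33.6% and 38.2%. Over all 27025 genes with a window in the table the shares were 0.836% for HNF1, 0.477% for HNF4, 10.8% for C/EBP, 12.4% for FOXA, 14.2% for the TATA box, 2.01% for PPAR and 37.9% for the CCAAT box. Both strands were searched, a match is only a run of letters, and the shares are a description with no test. Each gene was counted by itself, and whether near-identical copies of a gene gave several of the matches was not examined.

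**Figure D5:**
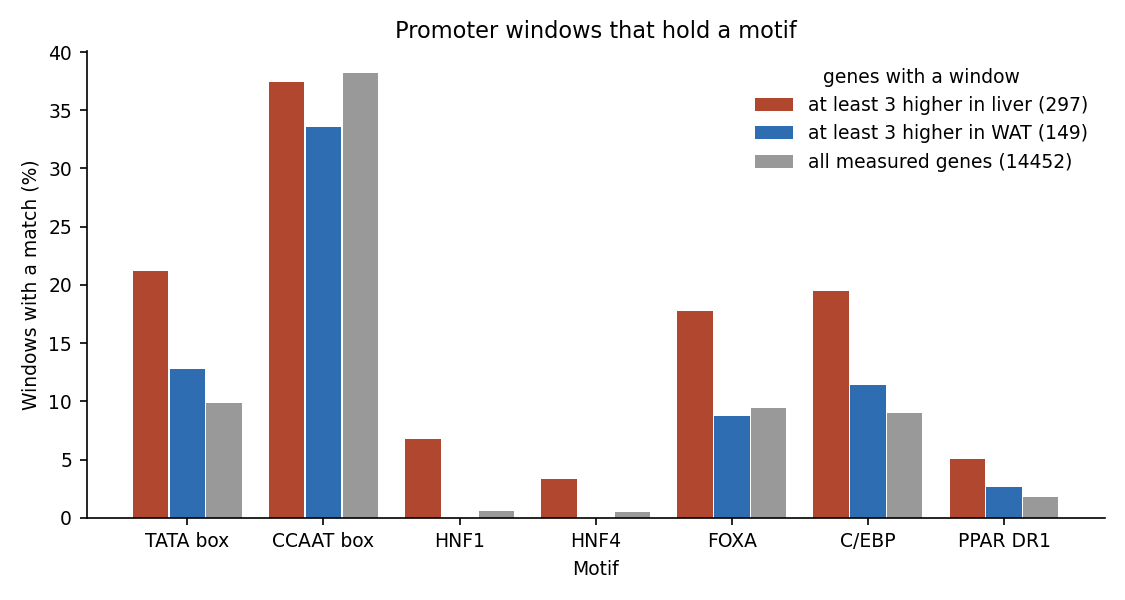
Share of promoter windows with at least 1 match (vertical axis, %) for 7 motifs (horizontal axis) among 297 genes at least 3 score units higher in liver (red), 149 at least 3 units higher in WAT (blue) and all 14452 measured genes with a window (grey). HNF1 and HNF4 matches lie in 6.73% and 3.37% of the liver windows and in 0.616% and 0.464% of all windows shown in grey. None of the 149 WAT windows holds one, a number of windows too small to tell from these low shares.

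The same contrast in the 5 CAAM mice gave the same signs. Of the 1782 probe sets higher in liver by at least 1 unit in water mice, 1780 were higher in liver in 5 of 5 CAAM mice, and of the 3755 higher in WAT, 3747 were higher in WAT in 5 of 5. Nearly all probe sets kept 1 sign within the water mice (44936 of 45037 in 7 of 7), and the share of all probe sets that did so in CAAM mice was not counted. These arrays may share any scaling by tissue, which the methods do not state, so that this is no independent check of the placement of the tissues. The difference between liver and WAT was not detectably different between CAAM and water mice. Limma called 0 of 45037 probe sets in the test of the interaction, with a lowest adjusted p of 0.528, and 2425 had an unadjusted p under 0.05. The median size of the change in the difference was 1.06e-05 score units.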

How the data were processed

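Liver, WAT and BAT of 12 mice were measured on Affymetrix 3' expression arrays of the mouse genome (36 arrays), of which the 14 liver and WAT arrays of the 7 water mice were compared. The authors quantified the scanned arrays with the distribution free weighted method in R (2.7.2 in the submitters' processing notes) and deposited 1 score per probe set. The methods do not say whether the tissues were quantified together. The score is not a log2 value by any stated rule, and arrays have no read depth. The method weights probes by how they vary over the arrays, and how far it narrowed the spread between mice was not tested.

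Of 45101 probe sets, 64 controls were left out and 45037 tested, with 34945 paired with 1 gene symbol in the platform annotation, 932 with several and 9160 with none. Within-mouse differences (liver minus WAT) were fitted with limma 3.58.1 in R 4.3.3 (lmFit, eBayes, two-sided) and adjusted by Benjamini-Hochberg, with calls at 0.05. The study tested treatments by rank products and no tissues, so that test is an alternative. Numbers in the titles were taken to name the animal, and deviations of same-numbered arrays from their tissue means correlated at -0.02 to 0.10. Those of arrays with other numbers correlated at -0.12 to 0.12, and 4 of the 7 livers correlated best with the WAT of their own number. These correlations therefore do not decide whether the numbers pair the tissues. Sdhd scored lowest in number 2 in liver, WAT and BAT (6.87, 6.57 and 7.57) and highest in number 7 (9.58, 8.54 and 13.7). Reep3 was lowest in number 2 (6.79, 7.30 and 7.20) and BC023105 highest in number 3 (10.2, 6.76 and 6.55) in the same tissues. Cyp4a14, Gstp3, Nnmt, Acot3 and Alas1, also named for their spread in liver, hardly varied in WAT. How often unpaired arrays would share such ends was not tested. The exact sign-flip test over 7 mice cannot go below a two-sided p of 0.015625.

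The members, lists, pairs and marks were chosen with earlier results of these data known. Of 551 list entries 495 were measured, 3 through a synonym. The named genes were Alb and Lep, the 15 genes with the largest difference per direction, both forms of each pair, up to 3 members per list and direction, any member against its list, the 8 genes with the largest SD per tissue and the 8 most even among the top 5% of both tissues. Every other gene was named after its values were seen. Alternatives were quantile normalization, centring, the linear scale, a filter on dim probe sets, no replicate block, a trended robust prior, a fit of 3 tissues, 1 probe set per gene, rank products, the sign-flip test and leaving out each mouse. The linear scale was 2 raised to the score, which treats the score as a log2 value although no such relation is stated. Leaving out mice 1 and 2 together was added after the data were seen. Promoter windows came from RefSeq (GRCm38.p6). Python 3.11.15, pandas 2.3.3, numpy 2.4.6, scipy 1.17.1 and matplotlib 3.10.9 were used.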

Additional observations from a re-analysis of the deposited data

Results flagged for a closer look

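Of 358 groups of 7 values (179 named genes in each tissue), 23 had a lowest or highest mouse that stood apart from the rest, where chance gives about 1 in 20 for genes not chosen for their spread. The measure is the gap to the nearest mouse over the whole range of the group. In 17 of the 23 that range was under 0.1 score units, far below the differences between tissues.

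The 6 with a wider range were Sdhd in liver (mouse 2 lowest, 0.808) and WAT (mouse 2 lowest, 0.788), Reep3 in liver (mouse 2 lowest, 0.753) and WAT (mouse 2 lowest, 0.719), Spink8 in WAT (mouse 1 highest, 0.602) and Aqp9 in WAT (mouse 1 highest, 0.574). Sdhd, Reep3 and Spink8 were named for their large SD between mice, which a lone mouse can produce, so that the chance rate does not apply to them.

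Among the narrow groups, mouse 1 was the lowest for Acot3 in WAT (0.670), Agt in liver (0.5682), Apoa1 in WAT (0.7098), Gcgr in WAT (0.661) and Nnmt in WAT (0.743), and the highest for Fga in WAT (0.874). Mouse 2 was the highest for Colec11 in liver (0.713) and Reln in WAT (0.673) and the lowest for Retn in WAT (0.571). Mouse 6 was the lowest for Csf1r (0.616) and Elovl5 (0.772) and the highest for Per1 (0.588), all in liver. The others were Cst11 in liver (mouse 3 lowest, 0.613), Ttr in liver (mouse 3 lowest, 0.575), Thbd in liver (mouse 4 highest, 0.600), Slc10a1 in liver (mouse 5 lowest, 0.792) and Scd1 in WAT (mouse 7 lowest, 0.644).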

How the results depend on the processing

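The number of called probe sets, 44946 as deposited, was 44823 after quantile normalization, 44882 after centring, 44928 on the linear scale, 44940 in a fit of 3 tissues, 44936 by the sign-flip test, 44990 without mice 1 and 2 and 44956 without the replicate block, so that the pairing changed few calls. Leaving out each mouse gave 44930 to 44947 calls, 19965 to 19984 higher in liver and 24960 to 24967 higher in WAT, 1782 to 1783 and 3749 to 3754 of them by at least 1 unit. In CAAM mice it gave 44867 to 44921. Fewer probe sets entered the fit without dim ones (26286 called, 10274 and 16012 by side) and with 1 per gene (18139, 8141 and 9998, with 1099 and 1949 at least 1 unit apart). Rank products, which rank each difference among all probe sets within a mouse, called 9831 (4916 and 4915). This measure is relative, so its number of calls is no check on the counts above, and the cause of the gap was not tested.

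Quantile normalization reversed Scd1 (-0.37), Ctsl (-0.38), Decr1 (-0.22), Psmb6 (-0.078), Cct5 (-0.041), Ldha (-0.025) and Tmed5 (-0.018), and centring reversed Ppp1cc (0.11) and Rps18 (0.10), all of which had differences of 0.30 or less. On the linear scale 7 named genes no longer passed the test, namely Adam7, BC023105, Cst11, Defb42, Gpx5, Lcn8 and Lcn9. By rank products 18 did not, all with differences under 1 unit, and the numbers at least 1 unit apart were 1782 and 3761. How tissues were scaled sets the zero of every difference.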
